A study of Mus musculus with 58 samples.

Results

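The genes described here are the ligands, receptors, inhibitors and signal transducers of the Wnt pathway that a set of gene symbols picks out of a table of ribosome-bound mRNA from mouse adipocytes. The symbols cover the Wnt ligands, the Frizzled receptors with their co-receptors, the secreted and membrane inhibitors, the R-spondin axis, the beta-catenin destruction complex and the TCF/LEF factors, and the symbol rule itself uses no measured value. There are 31 such genes among the 11603 rows. Of 70 protein-coding mouse genes of RefSeq whose symbols match, the other 39 have no row and were not analysed here, among them every gene named Sfrp, Dkk or Rspo, Wif1, Rnf43, Lef1 and Tcf7, and all Wnt ligands except Wnt5a, Wnt9a and Wnt11.

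Wnt proteins are lipid-modified by Porcn, carried to the cell surface by Wls, and bind Frizzled receptors together with the co-receptors Lrp5 or Lrp6. Binding recruits Dishevelled (Dvl) and disables the complex of Axin, Apc and Gsk3b that otherwise marks beta-catenin (Ctnnb1) for destruction, so that beta-catenin reaches TCF/LEF factors in the nucleus. Wnt5a and Wnt11 act mostly through branches that do not need beta-catenin, with Ror2 and Ryk as receptors. In adipose tissue, beta-catenin signalling is known for holding precursor cells back from becoming adipocytes.

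The study used TRAP, in which ribosomes tagged with GFP in a chosen cell type are pulled down with their mRNA, in C57BL/6J NuTRAP mice whose tag was driven by Ucp1 or Adipoq. The labels do not say which of these lines gave each library, nor the age or sex of the mice. Warm beige libraries (n = 3) came from inguinal white fat of mice held for 1 week at 4 °C and then for 4 weeks at 30 °C. Cold beige libraries (n = 4) came from the same depot after the week at 4 °C alone. Warm brown (n = 5) and cold brown libraries (n = 5) came from interscapular brown fat after those same treatments, and warm white libraries (n = 5) from inguinal fat of mice that had lived at 30 °C since birth. The labels give 23 °C as the general housing temperature. The libraries are called biological replicates, and the labels do not say whether one mouse gave libraries of both depots.

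The values are log2 CPM, a base-2 logarithm of a gene's reads scaled to the size of its library, and they are not corrected for gene length, so levels are compared between groups and not between genes. No read totals come with the values, so depth is unknown. Ucp1, the uncoupling protein of thermogenic fat, lay between 0.38 and 1.53 log2 CPM in warm beige, 11.16 and 11.71 in cold beige, 8.37 and 9.20 in warm brown, 11.92 and 12.49 in cold brown and -5.59 and -1.11 in warm white libraries. Adipoq, the adiponectin gene of all adipocytes, lay between 8.06 and 10.22 log2 CPM in all 22 libraries. Lep, the leptin gene, lay between 8.51 and 10.35 in warm beige, against 5.08 to 6.72 in cold beige libraries, and between 7.29 and 8.43 in warm brown, against 0.80 to 2.08 in cold brown libraries.

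Markers of other cell types were present and differed between the groups. Of 16 fibroblast and preadipocyte markers 15 had a row, and their summed level ran from 8241 to 12110 CPM in warm beige, 1691 to 2079 in cold beige, 600.6 to 768.7 in warm brown, 78.07 to 183.3 in cold brown and 12030 to 14260 in warm white libraries. All 12 endothelial markers had a row, with sums of 621.2 to 963.5 CPM in warm beige, 197.1 to 429.0 in cold beige, 149.9 to 261.2 in warm brown, 66.81 to 232.5 in cold brown and 62.58 to 94.19 in warm white libraries. Of 9 skeletal muscle markers with a row, 8 were higher in warm beige than in cold beige libraries, and of 7 macrophage markers 3 were. Over all rows 36.0% were higher there. The skeletal muscle sum went the other way in brown libraries, with 19.92 to 37.29 CPM in warm brown against 157.9 to 251.5 in cold brown. Only 2 of the 9 markers were lower in warm brown, where 30.1% of all rows were, and none was higher. Their median log2 fold change was 0, so the fall of the sum is not shared by most of these markers. Smooth muscle and pericyte sums ran from 441.3 to 736.2 CPM in warm beige, 334.4 to 526.2 in cold beige and 157.4 to 251.7 in warm white libraries. No fibroblast or endothelial marker was at the floor of the table in every library of a group. The 45S ribosomal RNA precursor Rn45s made up 4.32% to 5.72% of all CPM in warm beige, against 0.436% to 1.15% in cold beige libraries. Its share was 0.110% to 0.597% in warm brown, against 0.0575% to 0.0994% in cold brown, and 2.06% to 2.41% in warm white libraries. The part of other cell types and of RNA composition in the results that follow was not tested. In such pulldowns a change in the share of cells and a change in the mRNA of each cell cannot be told apart.

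The deposited values also part the libraries into a set of 10 and a set of 12, which take slightly different values in rows at the floor. The labels name no batch. With the groups in the fit, the largest absolute difference between the sets in any row was 0.005 log2 units. The sets of the depots were joined to make this difference smallest, and joined the other way it was 1.9. The deposited values thus seem to have had a difference between the sets already removed. Set 1 holds 1 warm beige, 2 cold beige, 2 warm brown, 2 cold brown and 3 warm white libraries, and set 2 the rest. Counts within each set stand beside the counts over all libraries. Within set 1 warm beige has the single library 3, which the fit assumes to vary like the other groups, so values there that involve warm beige are a weak check. The fit of all libraries includes those of each set, so agreement with it is partly built in.

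All 31 genes reached 1 CPM in at least 3 libraries, as every row of the table does, and 26 of them did so in every library. None was at the floor in any library. The highest group mean was in warm white libraries for 13 genes, in warm brown for 8, in cold brown for 6 and in warm beige and cold beige for 2 each. The lowest was in cold brown for 12 genes, in warm brown for 6, in warm white for 5 and in warm beige and cold beige for 4 each. The map of group means shows Nkd1, Tcf7l1 and Tcf7l2 lowest in cold brown and high in both warm beige and warm white, and Fzd6, Ror2 and Wnt11 lowest in warm white.

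**Figure D1:**
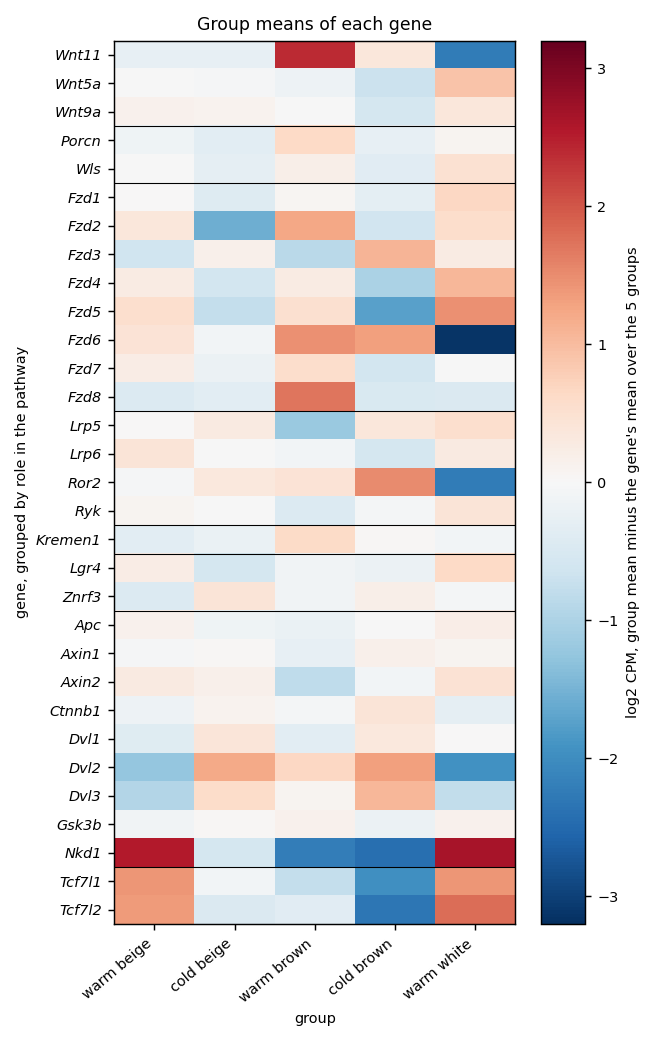
Group means of the 31 Wnt pathway genes (rows, by role from ligands at the top to nuclear factors at the bottom) in the 5 groups (columns). Colour gives the log2 CPM of the group mean minus the mean of the gene's 5 group means, red above and blue below. Fzd6 has its lowest mean in warm white libraries (-0.21 log2 CPM), and Nkd1 its highest means in warm white (3.22) and warm beige libraries (3.12).

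Warming of beige cells went with higher mRNA of most Frizzled receptors, of both TCF genes and of Nkd1, and with lower values of all 3 Dishevelled genes (Dvl2 with a doubt about its row, given with its values), while none of the 3 ligands passed the test. Between warm beige and cold beige libraries 19 of the 31 genes passed the threshold (adjusted p under 0.05, limma with Benjamini-Hochberg adjustment over all rows), 12 higher and 7 lower in warm beige. Over all 11603 rows 72.9% passed, 36.0% higher and 36.9% lower, against 61.3% of the Wnt genes. The median log2 fold change was 0.09 over the Wnt genes and 0.03 over all rows. The groups did not overlap for 17 of the 31 genes, against 66.4% of all rows, and 7 genes (22.6%) passed with at least a 2-fold change, against 33.5% of all rows. On these shares the Wnt genes lay below the table as a whole. Within set 1 9 genes passed, against 45.3% of all rows, and within set 2 15 did, against 68.3%, and all 19 had the same sign in both sets.

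Warming of brown cells moved nearly the whole group of genes, with all 3 ligands, both genes of ligand secretion, 6 of 8 Frizzled receptors and both TCF genes higher and 7 of 9 cytoplasmic transducers lower. Between warm brown and cold brown libraries 28 of 31 genes (90.3%) passed the threshold, 16 higher and 12 lower in warm brown. Over all rows 71.3% passed, 41.2% higher and 30.1% lower. The median log2 fold change was 0.32 over the Wnt genes and 0.13 over all rows, and with quantile normalization, under which the median of all rows became -0.01, 24 genes passed, 13 higher and 11 lower. Over all rows 65.5% passed with that normalization, and 49.8% of those calls were higher. The groups did not overlap for 24 of the 31 genes, against 63.0% of all rows, and 11 genes (35.5%) passed with at least a 2-fold change, against 24.7% of all rows. Within set 1 17 genes passed, against 43.5% of all rows, and within set 2 28, against 67.7%, and all 28 had the same sign in both sets. Leaving out the cold brown libraries 1 and 5, whose endothelial marker sums (232.5 and 223.3 CPM) lay above those of the other 3 (at most 75.75 CPM), left 28 genes past the threshold.

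The change on warming itself differed between the cell types for 18 of the 31 genes, 8 with a higher and 10 with a lower value in beige than in brown cells. Over all rows 47.2% passed this test of the difference, 14.8% higher and 32.4% lower, and 6 genes (19.4%) passed with at least a 2-fold difference, against 17.2% of all rows. With quantile normalization the split was 10 higher and 8 lower, and with median-of-ratios scaling 9 and 8. Of the calls over all rows 31.3% were higher with the values as deposited. That share was 49.7% with quantile normalization and 46% with median-of-ratios scaling. Within set 1 8 genes passed, against 17.0% of all rows, within set 2 17, against 41.6%, and 17 passed without the cold brown libraries 1 and 5. The warm groups moved the same way in both cell types for 15 genes, of which 8 were higher and 7 lower in each. Only Apc, a scaffold of the destruction complex, passed in opposite directions, Lgr4, Nkd1 and Fzd6 passed in beige cells alone, and 12 genes passed in brown cells alone, which is a count of calls and not in itself a test of a difference. Over all rows 72.9% passed in beige and 71.3% in brown cells, so joint calls are common. The shares of all rows in these classes were not counted, and the counts are not read as particular to the Wnt genes.

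**Figure D2:**
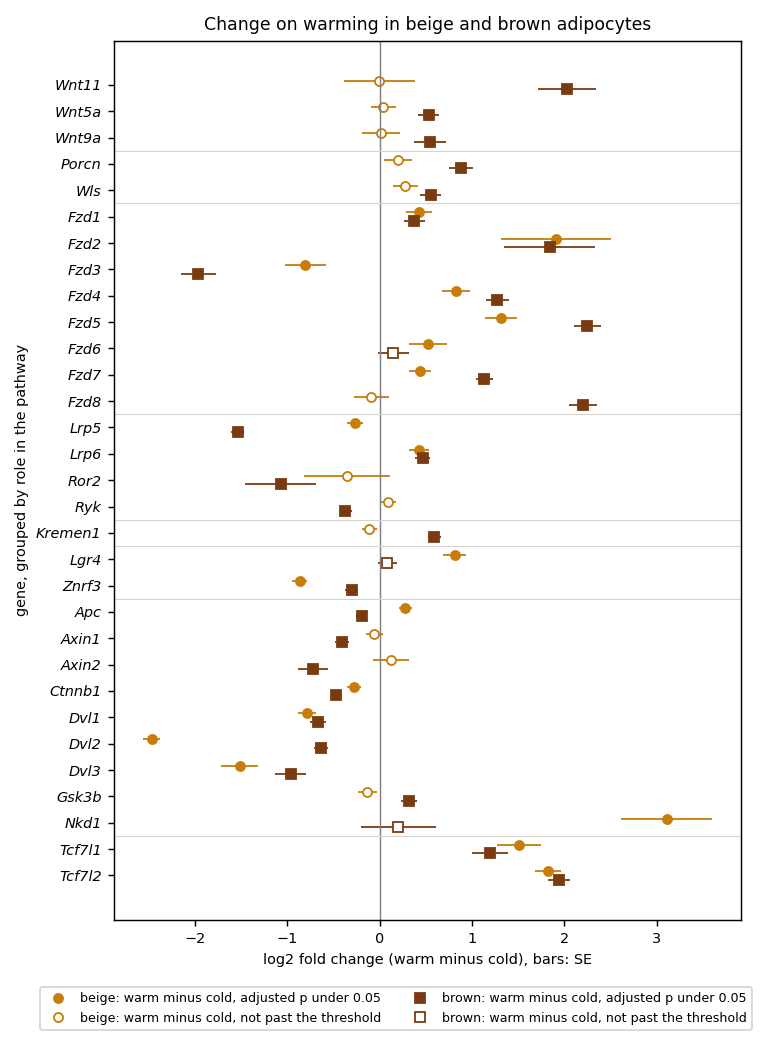
Log2 fold change on warming of each Wnt pathway gene (rows, by role) in beige cells (orange circles, warm beige minus cold beige) and brown cells (brown squares, warm brown minus cold brown), with bars for the standard error. Filled symbols passed the threshold over all rows of the table and open symbols did not. Wnt11 and Fzd8 lie near 0 in beige cells and at 2.03 and 2.20 in brown cells, while Nkd1 lies at 3.11 in beige and 0.20 in brown cells.

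The table holds 3 ligand genes. Wnt11, whose protein acts mostly without beta-catenin, had 3.29, 1.41 and 2.61 log2 CPM in warm beige and 2.15, 2.54, 2.71 and 2.36 in cold beige libraries. In warm brown libraries it had 5.00, 4.87, 5.23, 5.03 and 5.38, against 3.03, 2.86, 2.67, 3.46 and 3.34 in cold brown libraries. In warm white libraries it had 0.53, 1.72, 0.49, -0.34 and -0.06. All warm brown libraries lay above all cold brown ones, the warm beige libraries spread around the cold beige ones, and warm white libraries were low. Wnt11 rose in brown cells by 2.03 ± 0.32 (adjusted p = 5.43e-06) and changed by -0.00 ± 0.38 (adjusted p = 0.994) in beige cells, and the difference of the changes was -2.03 ± 0.49 (adjusted p = 0.00173), or -1.64 (adjusted p = 0.181) within set 1. Its row is on chromosome 7 (98835084 to 98854747, GRCm38.p6).

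Wnt5a, the other ligand known mainly for signalling through Ror2, had 5.62, 5.47 and 5.54 log2 CPM in warm beige and 5.66, 5.49, 5.53 and 5.33 in cold beige libraries. In warm brown libraries it had 5.50, 5.01, 5.64, 5.40 and 5.37, against 4.71, 5.13, 4.82, 4.91 and 4.70 in cold brown libraries, and in warm white libraries 6.22, 6.65, 6.50, 6.26 and 6.61. Warm and cold beige overlapped, the brown groups overlapped in 1 library each, and warm white libraries were above all others. Wnt5a rose in brown cells by 0.53 ± 0.11 (adjusted p = 0.000186), or by 0.34 (adjusted p = 0.256) within set 1. The difference between the cell types was -0.49 ± 0.17 (adjusted p = 0.0236), and it did not pass without warm beige library 2 (-0.45, adjusted p = 0.0586) or with quantile normalization (-0.28, adjusted p = 0.168). Wnt9a, a ligand of the beta-catenin branch, had 2.71, 2.42 and 2.26 in warm beige and 2.70, 2.58, 2.26 and 2.26 in cold beige libraries. It had 2.58, 2.05, 2.27, 2.33 and 2.34 in warm brown and 1.80, 1.94, 1.54, 1.91 and 1.65 in cold brown libraries, and 2.22, 3.04, 3.04, 2.41 and 2.75 in warm white libraries. Every warm brown library was above every cold brown one, and the beige groups overlapped. Wnt9a rose in brown cells by 0.55 ± 0.17 (adjusted p = 0.00676), and with quantile normalization that change was 0.07 (adjusted p = 0.795).

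Of the 2 genes of ligand secretion, Porcn, the acyltransferase that attaches the lipid to Wnt proteins, had 3.07, 2.72 and 2.40 log2 CPM in warm beige and 2.45, 2.46, 2.66 and 2.55 in cold beige libraries. It had 3.30, 3.76, 3.40, 3.54 and 3.45 in warm brown and 2.76, 2.47, 2.56, 2.65 and 2.61 in cold brown libraries, and 3.10, 3.12, 2.78, 2.85 and 2.97 in warm white libraries. Warm brown libraries stood above all cold brown ones, and the beige groups overlapped. Porcn rose in brown cells by 0.88 ± 0.13 (adjusted p = 2.07e-06) and the change in beige cells was 0.20 ± 0.15 (adjusted p = 0.246), or 0.37 (adjusted p = 0.0450) without warm beige library 3. Wls, the carrier of Wnt proteins to the surface, had 5.48, 5.79, 5.58, 5.80 and 5.67 in warm brown and 5.30, 5.26, 4.98, 5.06 and 4.96 in cold brown libraries. It had 5.59, 5.62 and 5.21 in warm beige and 5.14, 4.86, 5.36 and 5.42 in cold beige libraries, and 6.05, 5.97, 6.03, 6.07 and 5.68 in warm white libraries. The brown groups did not overlap, and the beige groups did. Wls rose in brown cells by 0.55 ± 0.11 (adjusted p = 0.000130). In beige cells its change was 0.28 ± 0.13 (adjusted p = 0.0665), and it passed without cold beige library 3 (0.33, adjusted p = 0.0432), cold beige library 4 (0.35, adjusted p = 0.0280) or warm beige library 3 (0.41, adjusted p = 0.0144).

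Among the 8 Frizzled receptors 6 rose and 1 fell in warm beige cells, and 6 rose and 1 fell in warm brown cells, where 72.9% and 71.3% of all rows passed. Fzd5 had 5.07, 5.13 and 5.33 log2 CPM in warm beige and 3.76, 3.81, 4.00 and 3.89 in cold beige libraries. In warm brown libraries it had 5.20, 4.99, 5.48, 4.90 and 5.15, against 2.49, 2.71, 3.08, 3.26 and 2.95 in cold brown libraries, and in warm white libraries 6.27, 6.48, 5.69, 5.90 and 6.19. No warm library overlapped a cold one in either cell type, and warm white libraries were the highest. Fzd5 rose by 1.31 ± 0.18 (adjusted p = 6.83e-07) in beige and by 2.25 ± 0.15 (adjusted p = 6.73e-12) in brown cells, and the rise was smaller in beige cells by 0.93 ± 0.23 (adjusted p = 0.00184). Fzd4, which also binds the ligand Norrin, lay between 8.33 and 9.10 in warm beige, against 7.47 to 7.96 in cold beige libraries, and between 8.46 and 8.85 in warm brown, against 7.21 to 7.53 in cold brown libraries. It rose by 0.83 ± 0.15 (adjusted p = 4.59e-05) in beige and 1.27 ± 0.13 (adjusted p = 7.14e-09) in brown cells, with no overlap of the groups in either. The Fzd4 and Tmem135 genes share 338 bases, and how reads there were counted is not stated.

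Fzd8 had 3.97, 3.94 and 4.05 log2 CPM in warm beige and 4.01, 3.98, 4.21 and 4.12 in cold beige libraries. In warm brown libraries it had 6.39, 6.40, 6.46, 5.90 and 5.58, against 3.68, 3.91, 3.81, 4.39 and 3.94 in cold brown libraries, and in warm white libraries 3.56, 3.96, 4.21, 3.95 and 4.15. Warm brown libraries stood apart from the other 4 groups, which overlapped. Fzd8 rose by 2.20 ± 0.16 (adjusted p = 3.01e-11) in brown cells and changed by -0.09 ± 0.19 (adjusted p = 0.665) in beige cells, and the difference of these changes was -2.29 ± 0.25 (adjusted p = 9.59e-08). Fzd7 rose by 0.44 ± 0.12 (adjusted p = 0.00188) in beige and 1.13 ± 0.10 (adjusted p = 5.62e-10) in brown cells, with no overlap between warm and cold libraries. Fzd3, a receptor of the planar cell polarity branch, was the only Frizzled gene to fall. It lay between 2.65 and 3.49 in warm beige, against 3.78 to 4.34 in cold beige libraries, and between 2.43 and 3.18 in warm brown, against 4.45 to 5.12 in cold brown libraries. Its fall was -0.80 ± 0.22 (adjusted p = 0.00279) in beige and -1.96 ± 0.19 (adjusted p = 3.13e-09) in brown cells, and the difference was 1.16 ± 0.29 (adjusted p = 0.00224).

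Fzd6, whose mouse protein also takes part in planar cell polarity, had 3.28, 3.31 and 3.50 log2 CPM in warm beige and 3.05, 2.84, 2.68 and 2.77 in cold beige libraries. It had 4.22, 4.16, 4.91, 4.31 and 4.35 in warm brown and 4.14, 3.95, 4.49, 4.31 and 4.31 in cold brown libraries, and 0.04, 0.13, -0.84, -0.08 and -0.29 in warm white libraries. Warm white libraries were the lowest by a wide margin, the beige libraries were in between and the brown ones highest. Fzd6 rose by 0.53 ± 0.21 (adjusted p = 0.0258) in beige cells, a call that was lost without warm beige library 3 (0.46, adjusted p = 0.0877), without cold beige library 3 (0.48, adjusted p = 0.0632) and with quantile normalization (0.43, adjusted p = 0.0734). Fzd1 rose by 0.43 ± 0.14 (adjusted p = 0.00961) in beige cells, and not past the threshold without warm beige library 1 (0.29, adjusted p = 0.0869) or 3 (0.34, adjusted p = 0.0606). In brown cells it rose by 0.38 ± 0.12 (adjusted p = 0.00627). Fzd2 was near 1 CPM, with 0.19, 1.81 and 1.51 in warm beige and -3.23, -0.02, -0.31 and 0.60 in cold beige libraries, and cold beige library 1 far below the rest. It rose by 1.91 ± 0.59 (adjusted p = 0.00649) in beige cells, where the groups overlapped and it did not pass in a fit of these groups alone (adjusted p = 0.0683) or within set 1 (2.83, adjusted p = 0.0821) or set 2 (1.17, adjusted p = 0.0642). In brown cells it rose by 1.84 ± 0.49 (adjusted p = 0.00204), and did not pass within set 1 (1.43, adjusted p = 0.268) or with quantile normalization (0.93, adjusted p = 0.150).

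**Figure D3:**
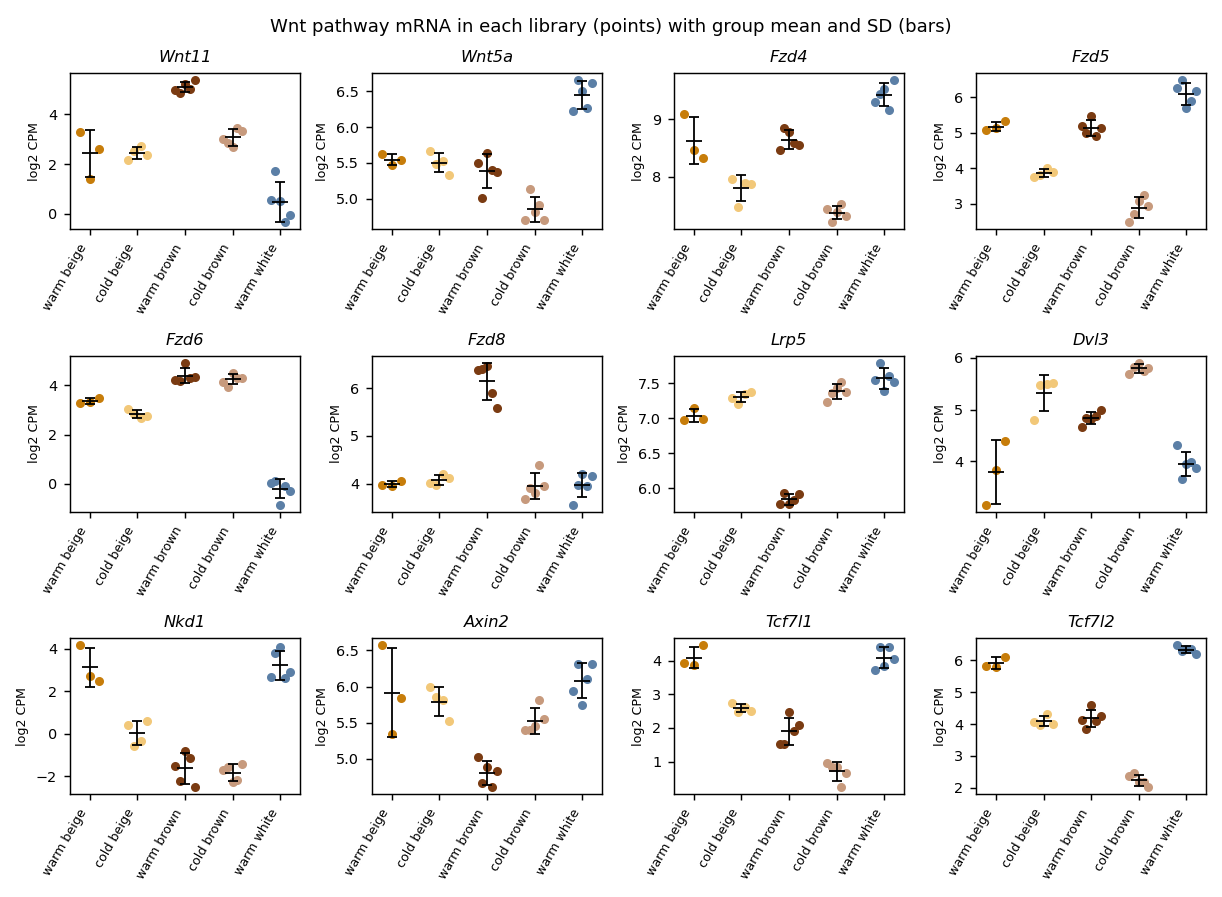
Log2 CPM of 12 Wnt pathway genes in each library (points) of the 5 groups, with the group mean and standard deviation as black bars. Each panel has its own vertical scale, which does not start at 0. Wnt11 and Fzd8 stand out in warm brown libraries (means 5.10 and 6.15), Lrp5 is low there (5.85), and Tcf7l1 and Tcf7l2 step down from warm to cold libraries in both beige and brown cells.

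The co-receptors did not move together. Lrp5 had 6.98, 7.14 and 6.99 log2 CPM in warm beige and 7.29, 7.21, 7.34 and 7.37 in cold beige libraries. In warm brown libraries it had 5.78, 5.94, 5.77, 5.83 and 5.92, against 7.23, 7.36, 7.43, 7.51 and 7.38 in cold brown libraries, and in warm white libraries 7.55, 7.79, 7.39, 7.60 and 7.51. Warm brown libraries lay more than 1 log2 unit below every library of the other 4 groups. Lrp5 fell in brown cells by 1.53 ± 0.07 (adjusted p = 1.64e-14) and in beige cells by 0.27 ± 0.08 (adjusted p = 0.00663), and the difference was 1.27 ± 0.11 (adjusted p = 2.86e-09). The small fall in beige cells did not pass with quantile normalization (-0.06, adjusted p = 0.544) or a common total (-0.11, adjusted p = 0.275).

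Lrp6, the partner of Lrp5, had 9.68, 9.71 and 9.70 log2 CPM in warm beige and 9.49, 9.27, 9.16 and 9.16 in cold beige libraries. It had 9.37, 9.07, 9.25, 9.04 and 9.23 in warm brown and 8.65, 8.77, 8.86, 8.70 and 8.66 in cold brown libraries, and 9.42, 9.45, 9.83, 9.45 and 9.69 in warm white libraries. Warm libraries were above cold ones with no overlap in both cell types. Lrp6 rose by 0.43 ± 0.10 (adjusted p = 0.000881) in beige and by 0.46 ± 0.09 (adjusted p = 4.98e-05) in brown cells. Ryk, a receptor with an inactive kinase domain, had 6.50, 6.75 and 6.56 in warm beige and 6.68, 6.51, 6.47 and 6.39 in cold beige libraries. It had 5.98, 5.99, 6.21, 6.05 and 6.12 in warm brown and 6.37, 6.58, 6.35, 6.49 and 6.42 in cold brown libraries, and 6.85, 7.06, 6.95, 6.82 and 7.00 in warm white libraries. Warm brown libraries were the lowest of the 5 groups, without overlap. Ryk fell in brown cells by 0.37 ± 0.07 (adjusted p = 6.44e-05) and changed in beige cells by 0.09 ± 0.09 (adjusted p = 0.341), with a difference of 0.46 ± 0.11 (adjusted p = 0.00146). Ror2, the receptor tyrosine kinase that binds Wnt5a, had 1.68, 1.40, 0.78, 1.01 and 0.98 in warm brown and 1.00, 2.44, 2.90, 2.87 and 2.00 in cold brown libraries, with cold brown library 1 far below the others of its group. It fell in brown cells by 1.07 ± 0.38 (adjusted p = 0.0164), with overlapping groups, and did not pass without cold brown library 3 (-0.91, adjusted p = 0.0534), without cold brown library 4 (-0.92, adjusted p = 0.0521) or within set 1 (-0.18, adjusted p = 0.837).

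Kremen1, a membrane receptor of the Dickkopf inhibitors that helps to remove Lrp6 from the surface, had 5.68, 5.70 and 5.48 log2 CPM in warm beige and 5.70, 5.67, 5.75 and 5.80 in cold beige libraries. It had 6.46, 6.69, 6.62, 6.47 and 6.57 in warm brown and 6.05, 5.93, 5.96, 5.97 and 5.95 in cold brown libraries, and 5.64, 5.92, 5.93, 5.74 and 6.02 in warm white libraries. Warm brown libraries were above all others, and the beige groups overlapped. Kremen1 rose in brown cells by 0.59 ± 0.07 (adjusted p = 1.25e-07) and changed in beige cells by -0.11 ± 0.09 (adjusted p = 0.248), with a difference of -0.70 ± 0.11 (adjusted p = 1.85e-05). It is the only inhibitor of this kind with a row, and none of the Dickkopf genes themselves was analysed here.

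Of the R-spondin axis, Lgr4, a receptor of R-spondins, had 6.49, 6.68 and 6.09 log2 CPM in warm beige and 5.71, 5.30, 5.80 and 5.62 in cold beige libraries. It had 6.17, 6.11, 6.04, 6.03 and 5.94 in warm brown and 6.00, 5.96, 5.92, 6.04 and 5.95 in cold brown libraries, and 6.80, 6.60, 6.92, 6.66 and 7.06 in warm white libraries. The beige groups did not overlap, and the brown groups did. Lgr4 rose in beige cells by 0.81 ± 0.13 (adjusted p = 4.51e-06) and changed by 0.08 ± 0.10 (adjusted p = 0.475) in brown cells, with a difference of 0.73 ± 0.16 (adjusted p = 0.000776). Znrf3, the ubiquitin ligase that removes Frizzled from the surface unless R-spondin binds it, had 5.02, 4.97 and 5.01 in warm beige and 5.88, 5.86, 5.83 and 5.89 in cold beige libraries. It had 5.25, 5.36, 5.31, 5.32 and 5.41 in warm brown and 5.58, 5.64, 5.87, 5.51 and 5.56 in cold brown libraries, and 5.43, 5.48, 5.51, 5.23 and 5.30 in warm white libraries. Warm libraries were below cold ones in both cell types, with no overlap. Znrf3 fell in beige cells by 0.87 ± 0.08 (adjusted p = 3.64e-09) and in brown cells by 0.30 ± 0.07 (adjusted p = 0.000477), and the fall was larger in beige cells, with a difference of -0.56 ± 0.11 (adjusted p = 0.000171). The brown fall did not pass with a common total (-0.15, adjusted p = 0.0844). Znrf3 and Kremen1 are neighbours on chromosome 11, 14615 bases apart.

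Of the 9 cytoplasmic genes 2 rose and 4 fell in warm beige cells, where 72.9% of all rows passed, and 1 rose and 7 fell in warm brown cells, where 71.3% passed. All 3 Dishevelled rows, of genes whose products pass the signal on from Frizzled, fell in both. Dvl1 had 5.52, 5.70 and 6.02 log2 CPM in warm beige and 6.45, 6.54, 6.56 and 6.58 in cold beige libraries. It had 5.76, 5.79, 5.67, 5.88 and 5.95 in warm brown and 6.42, 6.37, 6.46, 6.53 and 6.59 in cold brown libraries, and 6.41, 6.01, 6.15, 6.21 and 6.07 in warm white libraries. Every warm beige and warm brown library was below every cold one. Dvl1 fell by 0.79 ± 0.10 (adjusted p = 4.39e-07) in beige and by 0.66 ± 0.09 (adjusted p = 3.51e-07) in brown cells. Dvl3 lay between 3.17 and 4.40 in warm beige, against 4.80 to 5.51 in cold beige libraries, and between 4.66 and 4.99 in warm brown, against 5.69 to 5.90 in cold brown libraries. It fell by 1.51 ± 0.20 (adjusted p = 6.25e-07) in beige cells, or -0.76 (adjusted p = 0.0790) within set 1, and by 0.96 ± 0.17 (adjusted p = 2.43e-05) in brown cells. The gene of Dvl1 shares 36 bases with Tas1r3.

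Dvl2 had 8.87, 8.84 and 8.58 log2 CPM in warm beige and 11.36, 11.34, 11.16 and 11.06 in cold beige libraries. It had 10.81, 10.65, 10.59, 10.69 and 10.66 in warm brown and 11.40, 11.32, 11.25, 11.39 and 11.21 in cold brown libraries, and 8.05, 8.27, 8.04, 8.08 and 7.93 in warm white libraries. Cold libraries and warm brown libraries were high and warm beige and warm white libraries low, with no overlap between warm and cold in either cell type. Dvl2 fell by 2.47 ± 0.10 (adjusted p = 9.78e-16) in beige and by 0.63 ± 0.08 (adjusted p = 2.74e-07) in brown cells. These values are uncertain for Dvl2 itself: on chromosome 11 its gene (70000592 to 70010109, GRCm38.p6) ends 73 bases before that of Acadvl (70010183 to 70015428), an enzyme of mitochondrial fatty acid oxidation that has no row in the table, and how reads there were counted is not stated. The part of Acadvl reads in the Dvl2 row was not tested. Without Dvl2, 18 of 30 Wnt genes passed on warming in beige cells (12 higher, 6 lower) and 27 of 30 in brown cells (16 higher, 11 lower).

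Nkd1, which binds Dishevelled and dampens the signal and is itself induced by beta-catenin, had 4.16, 2.71 and 2.50 log2 CPM in warm beige and 0.42, -0.60, -0.34 and 0.59 in cold beige libraries. It had -1.53, -2.23, -0.80, -1.13 and -2.52 in warm brown and -1.71, -1.58, -2.30, -2.21 and -1.42 in cold brown libraries, and 2.68, 3.79, 4.09, 2.62 and 2.92 in warm white libraries. Warm beige and warm white libraries were high, cold beige libraries were near 1 CPM, and brown libraries lay below 1 CPM with overlapping groups. Nkd1 thus reached 1 CPM in at least 3 libraries, as every row does, through inguinal libraries alone. Nkd1 rose in beige cells by 3.11 ± 0.49 (adjusted p = 6.65e-06) and changed by 0.20 ± 0.41 (adjusted p = 0.668) in brown cells. The beige rise was 1.22 with 5 CPM added, where that of Tcf7l2 was 1.56, and 2.00 within set 1. The difference was 2.90 ± 0.64 (adjusted p = 0.000687), with values of 2.23 (adjusted p = 0.102) within set 1, which has 1 warm beige library, and of 3.41 (adjusted p = 0.00952) within set 2. Axin2, a scaffold of the destruction complex and a common readout of beta-catenin activity, lay between 5.34 and 6.57 in warm beige, against 5.52 to 5.99 in cold beige libraries, and between 4.61 and 5.03 in warm brown, against 5.40 to 5.82 in cold brown libraries. It fell in brown cells by 0.72 ± 0.16 (adjusted p = 0.000439), without overlap, and changed by 0.12 ± 0.20 (adjusted p = 0.579) in beige cells. The difference of 0.84 ± 0.26 (adjusted p = 0.00909) was 0.52 (adjusted p = 0.0501) without warm beige library 1, the highest of its group.

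The remaining cytoplasmic genes moved by less than 0.5 log2 units. Ctnnb1, the beta-catenin gene, fell by 0.47 ± 0.06 (adjusted p = 4.66e-07) in brown cells and by 0.28 ± 0.07 (adjusted p = 0.00178) in beige cells, but in beige cells the sign turned with quantile normalization (0.08, adjusted p = 0.284) and the change did not pass with a common total (-0.13, adjusted p = 0.0832). Apc rose by 0.28 ± 0.07 (adjusted p = 0.00172) in beige and fell by 0.20 ± 0.06 (adjusted p = 0.00615) in brown cells, and the brown fall did not pass with quantile normalization (-0.09, adjusted p = 0.207) or a common total (-0.04, adjusted p = 0.575). Axin1, the main scaffold of the complex, fell by 0.41 ± 0.08 (adjusted p = 6.03e-05) in brown cells and changed by -0.06 ± 0.09 (adjusted p = 0.592) in beige cells. Gsk3b, its kinase, rose by 0.32 ± 0.08 (adjusted p = 0.00171) in brown cells, with overlapping groups, and changed by -0.13 ± 0.10 (adjusted p = 0.237) in beige cells. The Gsk3b gene shares 260 bases with BC031361.

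Both TCF genes, whose proteins bind DNA together with beta-catenin, rose in both cell types on warming. Tcf7l2 had 5.81, 5.79 and 6.12 log2 CPM in warm beige and 4.07, 3.97, 4.31 and 3.99 in cold beige libraries. It had 4.12, 3.84, 4.60, 4.08 and 4.24 in warm brown and 2.36, 2.46, 2.18, 2.17 and 2.02 in cold brown libraries, and 6.47, 6.28, 6.37, 6.35 and 6.20 in warm white libraries. Warm and cold libraries did not overlap in either cell type, cold brown libraries were the lowest, and warm brown libraries were at the level of cold beige ones. Tcf7l2 rose by 1.82 ± 0.14 (adjusted p = 1.28e-10) in beige and by 1.94 ± 0.12 (adjusted p = 2.49e-12) in brown cells, and the difference of the changes was -0.12 ± 0.19 (adjusted p = 0.634), with a 95% interval from -0.50 to 0.27.

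Tcf7l1, which acts more often as a repressor, had 3.93, 3.89 and 4.46 log2 CPM in warm beige and 2.74, 2.47, 2.62 and 2.51 in cold beige libraries. It had 1.51, 1.53, 2.47, 1.92 and 2.08 in warm brown and 0.97, 0.85, 0.84, 0.24 and 0.65 in cold brown libraries, and 3.74, 4.41, 3.85, 4.40 and 4.05 in warm white libraries. Warm libraries lay above cold ones in both cell types without overlap, cold brown libraries were the lowest, and warm beige and warm white libraries overlapped. Tcf7l1 rose by 1.51 ± 0.23 (adjusted p = 5.15e-06) in beige and by 1.19 ± 0.19 (adjusted p = 9.85e-06) in brown cells, and in brown cells it did not pass with quantile normalization (0.42, adjusted p = 0.0601) or within set 1 (0.61, adjusted p = 0.104). The difference was 0.32 ± 0.30 (adjusted p = 0.414), with a 95% interval from -0.31 to 0.95.

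Of the members 19 have promoter windows in RefSeq (GRCm38.p6), 22 windows in all, each from 250 bases before to 50 bases after a transcription start. The windows were searched on both strands for the TCF/LEF core, whose first spelling is CTTTGAA, the second spelling is CTTTGAT, the third spelling is CTTTGTA and the fourth spelling is CTTTGTT, because this is the sequence through which Tcf7l1 and Tcf7l2 act. It was found in 3 of the 22 windows (13.6%), against 16.9% of all 32851 mouse windows and 11.3% of the 11038 windows of genes with a row. The 3 windows are shown with the match in capitals, 5′ to 3′ on the plus strand, which is the strand of the gene in each case. All 3 genes rose in brown cells on warming, where 16 of all 31 Wnt genes and 41.2% of all rows rose. Fzd7 and Tcf7l2 rose also in beige cells, where 12 of the 31 and 36.0% of all rows rose. A link between the core and the change was not tested. A match is a description of the letters and not evidence of binding.
Fzd7, chr1:59481897-59482196: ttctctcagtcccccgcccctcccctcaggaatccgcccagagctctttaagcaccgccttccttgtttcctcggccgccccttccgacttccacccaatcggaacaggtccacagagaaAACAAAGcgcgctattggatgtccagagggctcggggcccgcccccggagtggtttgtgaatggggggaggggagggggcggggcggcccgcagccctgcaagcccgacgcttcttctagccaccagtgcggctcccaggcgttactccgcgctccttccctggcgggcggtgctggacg
Wnt11, chr7:98834862-98835161: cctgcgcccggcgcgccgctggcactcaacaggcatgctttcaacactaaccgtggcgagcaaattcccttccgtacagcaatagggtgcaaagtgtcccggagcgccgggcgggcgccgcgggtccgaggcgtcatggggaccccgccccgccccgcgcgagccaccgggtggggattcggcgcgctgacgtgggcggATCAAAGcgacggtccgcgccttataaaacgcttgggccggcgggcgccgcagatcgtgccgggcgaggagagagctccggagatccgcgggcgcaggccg
Tcf7l2, chr19:55895071-55895370: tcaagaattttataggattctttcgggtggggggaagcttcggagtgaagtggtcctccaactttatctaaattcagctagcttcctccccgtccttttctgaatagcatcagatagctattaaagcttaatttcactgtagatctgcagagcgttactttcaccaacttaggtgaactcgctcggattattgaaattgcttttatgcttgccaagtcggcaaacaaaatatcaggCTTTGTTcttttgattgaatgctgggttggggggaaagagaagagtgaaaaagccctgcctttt
The Fzd7 and Wnt11 windows hold the core on the minus strand, so that its reverse complement is printed (AACAAAG in Fzd7, ATCAAAG in Wnt11). The Tcf7l2 window, which holds CTTTGTT as searched, belongs to a start inside the gene (chromosome 19, 55741797 to 55933659) and not to its first start.

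In the cold, beige and brown cells differed most in the TCF genes, Nkd1, Fzd6 and Ror2. Between cold beige and cold brown libraries 18 of the 31 genes passed, 11 higher and 7 lower in cold beige, against 61.9% of all rows, of which 34.7% were higher and 27.2% lower. With quantile normalization the split was 9 and 9, and with median-of-ratios scaling 9 and 10. Of the calls over all rows 56% were higher with the values as deposited. That share was 46% with quantile normalization and 45.8% with median-of-ratios scaling. Within set 1 9 genes passed, against 32.0% of all rows, and within set 2 14, against 52.0%, with the same sign for all 18. The groups did not overlap for 14 genes, against 54.2% of all rows, and 5 genes (16.1%) passed with at least a 2-fold difference, against 18.5%. Tcf7l2 was higher in cold beige by 1.85 ± 0.13 (adjusted p = 6.02e-11) and Tcf7l1 by 1.88 ± 0.21 (adjusted p = 8.83e-08). Nkd1 was higher by 1.86 ± 0.43 (adjusted p = 0.000770), but both groups were near or below 1 CPM: with 5 CPM added the value was 0.20 (adjusted p = 0.362), and with quantile normalization it was -0.58 (adjusted p = 0.330). Fzd6 was lower in cold beige by 1.41 ± 0.18 (adjusted p = 8.60e-07). Ror2 was lower by 1.18 ± 0.41 (adjusted p = 0.0156), with overlapping groups and a value of -0.82 (adjusted p = 0.342) within set 1. The fibroblast marker sum given above was higher in every cold beige than in every cold brown library.

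After warming, Nkd1, both TCF genes, Lrp5 and Axin2 were higher in beige than in brown cells by at least 2-fold, and Wnt11, Fzd8, Fzd6 and Dvl3, with the Dvl2 row, were lower by at least 2-fold. Between warm beige and warm brown libraries 20 genes passed, 10 higher and 10 lower in warm beige, against 75.5% of all rows, of which 35.3% were higher and 40.1% lower. Of these, 10 (32.3%) differed by at least 2-fold, against 35.9% of all rows, and in the cold 5 (16.1%), against 18.5% of all rows. The share of all rows was thus also larger after warming. The groups did not overlap for 17 genes, against 70.0% of all rows. Within set 1 12 genes passed, against 52.5% of all rows, and within set 2 19, against 71.8%, and Lgr4 and Axin1 had the opposite sign within set 1. Nkd1 was higher in warm beige by 4.77 ± 0.47 (adjusted p = 5.55e-09), Tcf7l1 by 2.19 ± 0.22 (adjusted p = 9.71e-09) and Tcf7l2 by 1.73 ± 0.14 (adjusted p = 1.45e-10). Nkd1 lay below 1 CPM in every brown library and is in the table only through inguinal libraries. Its value went down to 1.40 among the alternatives, so the size of this difference is uncertain. Lrp5 was higher by 1.19 ± 0.08 (adjusted p = 8.53e-12) and Axin2 by 1.11 ± 0.19 (adjusted p = 1.43e-05). The value of Axin2 passed in every alternative but ran from 0.78 to 1.40, so it was not 2-fold in all of them. Wnt11 was lower in warm beige, with a value of -2.67 ± 0.36 (adjusted p = 8.08e-07), as was Fzd8, with -2.16 ± 0.18 (adjusted p = 3.68e-10). The log2 fold change of Dvl2 was -1.92 ± 0.09 (adjusted p = 3.59e-14), subject to the doubt about its row. Dvl3 was lower with -1.03 ± 0.19 (adjusted p = 5.26e-05), and Fzd6 with -1.03 ± 0.20 (adjusted p = 6.81e-05). Both did not pass within set 1 (Dvl3 -0.35, adjusted p = 0.386, and Fzd6 -0.69, adjusted p = 0.101).

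Compared with warm white cells of the same depot, warm beige cells had lower mRNA of more Wnt genes than they had higher. The largest log2 differences were higher, in genes near or below 1 CPM in warm white libraries. Between warm beige and warm white libraries 17 genes passed, 4 higher and 13 lower in warm beige, against 39.4% of all rows, of which 17.0% were higher and 22.4% lower. The 4 higher include the doubtful Dvl2 row, and without it 3 were higher and 13 lower. The median log2 fold change was -0.23 over the Wnt genes and -0.04 over all rows. Within set 1 8 genes passed, against 11.2% of all rows, and within set 2 16, against 32.9%, with the same sign for all 17. The groups did not overlap for 14 genes, against 29.0% of all rows, and 3 genes (9.68%) passed with at least a 2-fold difference, against 11.5%. Fzd6 was higher in warm beige by 3.57 ± 0.20 (adjusted p = 7.21e-12), without overlap. Its warm white mean was 0.87 CPM, and among the alternatives the value went down to 1.38, still past the threshold. Ror2 was higher by 2.21 ± 0.44 (adjusted p = 0.000416), though not past the threshold with 5 CPM added (0.35, adjusted p = 0.0503) or with quantile normalization (1.02, adjusted p = 0.0573). Wnt11 was higher by 1.97 ± 0.36 (adjusted p = 0.000180), where 1 warm white library lay above the lowest warm beige one, and by 1.88 within set 1, which has 1 warm beige library. The warm white mean of Wnt11 was 1.38 CPM, and among the alternatives its value went down to 0.73, less than 2-fold.

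The 13 genes that were lower in warm beige than in warm white cells differed by less than 2-fold. Wnt5a had a log2 fold change of -0.91 ± 0.13 (adjusted p = 7.92e-06), Fzd5 of -0.93 ± 0.17 (adjusted p = 0.000147) and Fzd4 of -0.80 ± 0.15 (adjusted p = 0.000163). Tcf7l2 was lower with -0.43 ± 0.14 (adjusted p = 0.0163), a call lost without warm beige library 1 (-0.38, adjusted p = 0.0640) or 2 (-0.37, adjusted p = 0.0785), while Tcf7l1 had a value of 0.00 ± 0.22 (adjusted p = 0.992) with a 95% interval from -0.46 to 0.47. Nkd1 had a value of -0.10 ± 0.47 (adjusted p = 0.892), with an interval from -1.07 to 0.88. In these libraries the endothelial marker sum was higher in every warm beige than in every warm white library. The ranges of the fibroblast marker sum overlapped only narrowly, with a median of 9705 CPM in warm beige and 13710 in warm white. Of the 15 fibroblast markers 8 were higher and 2 lower in warm beige, where 17.0% of all rows were higher and 22.4% lower.

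**Figure D4:**
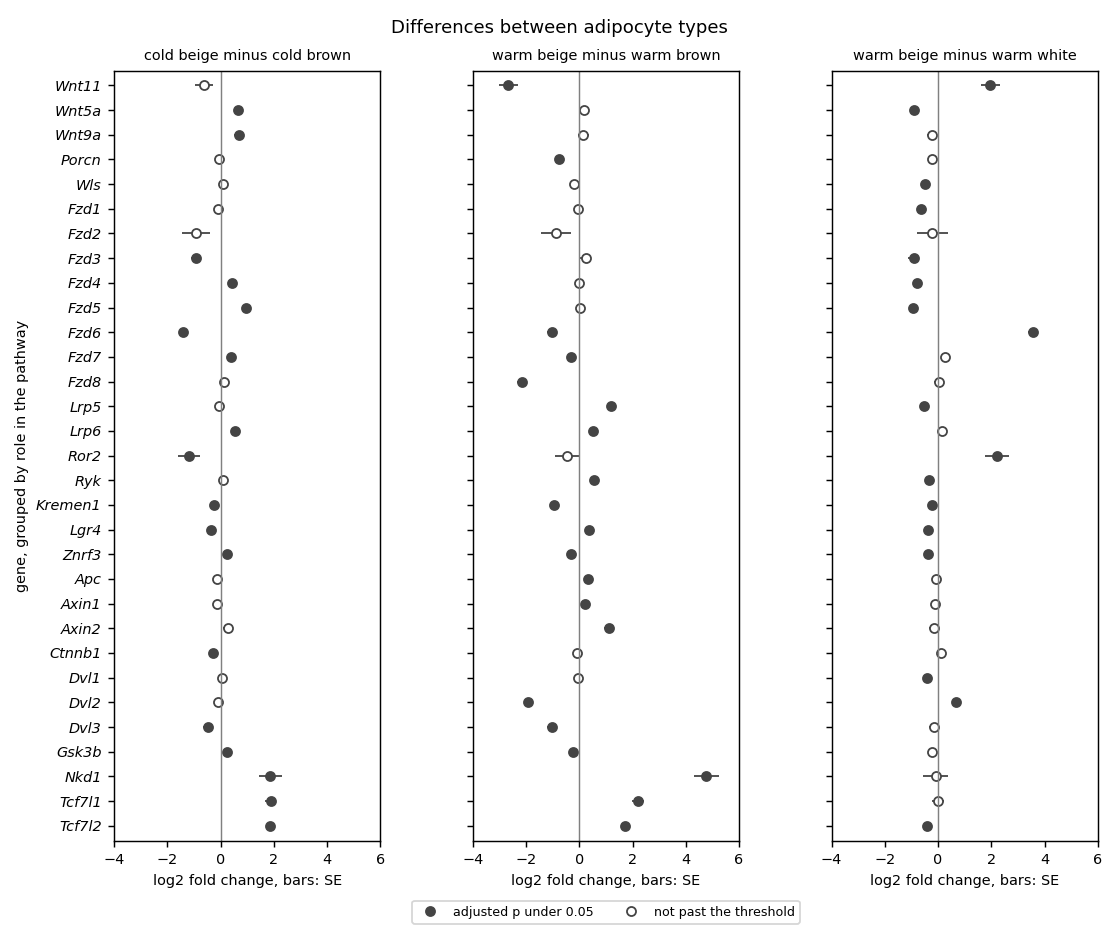
Log2 fold change of each Wnt pathway gene (rows, by role) in cold beige minus cold brown (left), warm beige minus warm brown (middle) and warm beige minus warm white libraries (right), with bars for the standard error. Filled points passed the threshold over all rows and open points did not. Tcf7l1, Tcf7l2 and Nkd1 lie to the right in both comparisons with brown cells. In the comparison with white cells Tcf7l1 and Nkd1 lie near 0 as open points, Tcf7l2 lies below 0 as a filled point, and Fzd6 lies at 3.57.

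Genes of the pathway outside the symbol set were counted in 6 lists, whose counts of calls are to be read against 72.9% of all rows called in beige cells (36.0% higher, 36.9% lower) and 71.3% in brown cells (41.2% higher, 30.1% lower). Of 11 measured targets of beta-catenin, 3 of which (Axin2, Nkd1 and Znrf3) are among the 31 genes, 5 were higher and 3 lower in warm beige than in cold beige libraries, and 6 were higher and 2 lower in warm brown than in cold brown libraries, a share of calls near that of all rows. Apcdd1, an inhibitor of Wnt binding and a target of the pathway, rose by 3.79 ± 0.38 (adjusted p = 5.90e-09) in beige and 6.52 ± 0.31 (adjusted p = 3.99e-14) in brown cells. It had 6.73, 7.01, 6.72, 6.18 and 6.41 log2 CPM in warm brown and 0.69, -1.12, 0.54, 0.77 and -0.45 in cold brown libraries. These groups were far apart. Myc, a growth-related transcription factor, rose by 3.58 ± 0.28 (adjusted p = 1.29e-10) in brown cells, and Bambi, a TGF-beta pseudoreceptor, by 2.33 ± 0.31 (adjusted p = 5.12e-07). Sox4, another transcription factor, rose by 1.91 ± 0.26 (adjusted p = 9.85e-07) in beige cells, where Id2, an inhibitor of helix-loop-helix factors, had a value of -1.86 ± 0.28 (adjusted p = 2.91e-06). In brown cells Id2 went the other way, with a rise of 1.03 ± 0.23 (adjusted p = 0.000358).

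The next list, of 16 other extracellular modulators, shares Apcdd1 and Bambi with the list of targets, and both genes rose in both cell types. Of these 16, warming of beige cells went with 11 rises and 2 falls, where 36.0% of all rows rose and 36.9% fell. Warming of brown cells went with 12 rises and 0 falls, where 41.2% of all rows rose and 30.1% fell. The medians were 1.10 and 1.32, against 0.03 and 0.13 over all rows. Lgr6, a further R-spondin receptor, had -0.73, -6.16 and -5.41 log2 CPM in warm beige and 7.48, 6.90, 6.94 and 6.54 in cold beige libraries. In warm brown libraries it had 7.94, 7.37, 7.18, 7.17 and 6.27, against 8.20, 8.24, 7.60, 7.40 and 7.09 in cold brown libraries, and in warm white libraries -5.41, -5.41, -6.16, -3.42 and -5.41. Warm beige libraries 2 and 3 and 4 of 5 warm white libraries were at the floor, while cold beige and both brown groups were high. Gpc1, a cell surface heparan sulfate proteoglycan, fell in beige cells with a value of -2.69 ± 0.22 (adjusted p = 3.17e-10). Gpc4, of the same family, rose by 1.59 ± 0.10 (adjusted p = 2.57e-12) in brown cells, and Adgra2, a co-receptor for Wnt7 in vessels, by 2.73 ± 0.24 (adjusted p = 7.12e-10).

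Of 12 genes of planar cell polarity 7 rose and 1 fell in beige cells, near the 72.9% of all rows called there, and 4 rose and none fell in brown cells, below the 71.3% called there. Celsr2, an atypical cadherin of this branch, rose by 1.75 ± 0.15 (adjusted p = 3.31e-10) in beige and 2.06 ± 0.12 (adjusted p = 1.23e-12) in brown cells, and Daam1, a formin that binds Dishevelled, by 1.00 ± 0.14 (adjusted p = 8.30e-07) and 1.62 ± 0.11 (adjusted p = 2.16e-11). Of 25 further genes of the destruction complex and its kinases 5 rose and 11 fell in beige cells, and 10 rose and 8 fell in brown cells, shares near or below the 72.9% and 71.3% of all rows. Gsk3a, the sister kinase of Gsk3b, had a value of -1.13 ± 0.11 (adjusted p = 8.07e-09) in beige cells, and Tnks, the tankyrase that marks Axin for removal, rose by 0.61 ± 0.08 (adjusted p = 5.84e-07) in beige and 0.87 ± 0.07 (adjusted p = 1.12e-10) in brown cells. Of 23 partners of beta-catenin, most of them nuclear, 13 rose and 5 fell in beige cells, where 36.0% of all rows rose. In brown cells 15 rose and 3 fell, where 41.2% of all rows rose. The list also holds Cdh2, Ctnna1, Ctnnd1 and Jup, whose proteins belong to cell junctions. Aes, a short Groucho-type corepressor, had a value of -2.22 ± 0.10 (adjusted p = 2.09e-14) in beige cells, and Chd8, a chromatin remodeller that binds beta-catenin, rose by 0.94 ± 0.07 (adjusted p = 3.65e-11). Of 10 genes of Wnt trafficking none rose and 8 fell in beige cells, and 1 rose and 7 fell in brown cells, against 36.9% and 30.1% of all rows that fell. Tmed5, a cargo receptor of early secretion, had values of -3.28 ± 0.09 (adjusted p = 1.71e-18) in beige and -2.07 ± 0.07 (adjusted p = 2.23e-16) in brown cells, and Vps35, a retromer subunit that recycles Wls, of -0.93 ± 0.11 (adjusted p = 1.66e-07) and -0.84 ± 0.09 (adjusted p = 4.47e-08).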

How the data were processed

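Ribosome-bound mRNA of 22 libraries was analysed, and the 36 chromatin libraries of the series were not used here. The deposited values are log2 CPM per gene in 1 table of 11603 rows, each with at least 1 CPM in at least 3 libraries. The submitters' processing notes name the build mm10 and the tools edgeR, featureCounts, Picard and HISAT2. Their versions, the strand setting and the treatment of shared reads are not given in the sources used here. The counts behind the values, and so the depth, are unknown. The beige and brown columns carry the names in the sample descriptions. The 5 warm white columns were assigned by title, since their descriptions have "rewarm" where the columns have "warm".

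The log2 values were fitted with limma (version 3.58.1, R 4.3.3), with a trend in the variance, 5 group means, no covariate and 17 residual degrees of freedom. Tests were two-sided, with Benjamini-Hochberg adjustment over all rows and a threshold of 0.05. Intervals are 95% intervals of this fit. The p-values measure the spread between libraries labelled as biological replicates. The 17 degrees of freedom do not count the difference between the sets that seems to have been removed before, so the p-values may be somewhat too small. The code was tested on simulated data. Alternatives were other scalings, 1 or 5 CPM added, a filter at 5 CPM in 3 libraries, fits of the compared groups alone, library weights, replicate blocks, fits within each set of libraries, and leaving out each library in turn.

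The genes and the lists were chosen with earlier results of these data known. Values in every library are given for up to 3 genes of each role with the largest moderated statistic, and every gene past the threshold with a change of at least 2-fold is named. Other genes are named where their role or a doubtful call asked for it. From the pathway lists, up to 3 genes past the threshold with the largest statistic per warming comparison were eligible. Promoter windows and gene positions are from RefSeq (GRCm38.p6).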

Additional observations from a re-analysis of the deposited data

Results flagged for a closer look

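In 5 of the 124 combinations of a Wnt gene and a group of 4 or 5 libraries, 1 library lay far from the others by Dixon's criterion, which chance meets in about 5% of groups. Fzd7 had 5.74 log2 CPM in warm white library 4, against 6.13 to 6.21 in the others. Wls had 5.68 in warm white library 5, against 5.97 to 6.07. Fzd4 had 7.47 in cold beige library 2, against 7.88 to 7.96. Fzd6 had 4.91 in warm brown library 3, against 4.16 to 4.35. Dvl3 had 4.80 in cold beige library 1, against 5.47 to 5.51.

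The warming effect differed between beige and brown cells, by limma's test of the difference, for 18 genes. The log2 change was higher in beige than in brown cells by 2.90 for Nkd1, 1.27 for Lrp5, 1.16 for Fzd3, 0.84 for Axin2, 0.73 for Lgr4, 0.47 for Apc, 0.46 for Ryk and 0.35 for Axin1. For the other 10 genes beige minus brown was negative, with -2.29 for Fzd8, -2.03 for Wnt11, -1.83 for Dvl2, -0.93 for Fzd5 and -0.70 for both Kremen1 and Fzd7. It was -0.68 for Porcn, -0.56 for Znrf3, -0.49 for Wnt5a and -0.45 for Gsk3b.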

How the results depend on the processing

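Within set 1 alone, fewer Wnt genes passed in every comparison: 9 on warming in beige cells, 17 in brown cells, 8 for the difference, 9 between cold beige and cold brown, 12 between warm beige and warm brown and 8 between warm beige and warm white libraries, with fewer samples in each fit. Leaving out 1 library at a time gave 18 to 20, 27 to 28, 17 to 20, 16 to 20, 16 to 20 and 16 to 18 genes in the same order. With the number in the title as replicate block the counts were 19, 28, 18, 18, 19 and 16, and with the library number 19, 28, 18, 17, 20 and 18. Whether a number marks a shared mouse is not given. By library number the correlations of same-numbered deviations ran from 0.071 to 0.35 for cold beige with cold brown and 0.065 to 0.205 for warm beige with warm brown, positive in each pair but not all above 0.1, and from -0.11 to 0.148 for warm with cold brown and -0.102 to -0.067 for warm with cold beige libraries. The 42 gene values of at least 2-fold had 997 alternative values in all, of which 975 kept their direction and their side of the threshold, 21 kept their direction but missed the threshold, and 1 reversed: Nkd1 between cold beige and cold brown was -0.58 with quantile normalization (adjusted p = 0.330), and the cause was not tested. With a common total, under which the median of all rows moved to 0.18 in beige and 0.28 in brown cells, 15 genes were higher and 5 lower in warm beige, and 17 and 10 in warm brown. Of the calls over all rows 57% were then higher in beige and 67.6% in brown cells. With the values as deposited these shares were 49.4% and 57.7%. Leaving out cold brown libraries 1 and 5 was chosen after seeing the data. Depth is unknown, so precision rests on the replicates, and values near 1 CPM (Nkd1, Ror2, Fzd2, and Fzd6 and Wnt11 in warm white libraries) are the least certain.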
